A study of Rattus norvegicus with 98 samples.

Results

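The periaqueductal grey (PAG) was compared between fluoxetine-treated (FT) and vehicle-treated (Sham) rats through its 4 H3K27ac ChIP-seq peak lists, 2 FT and 2 Sham. The lists were chosen by their titles, which name the region, the treatment and the replicate. They were 4 of the 94 peak lists analysed, which came from 25 brain regions (47 Sham and 47 FT). All animals were naive male Long-Evans rats, 2 months old when treatment began. The FT group took 18 mg/kg body weight of fluoxetine in its drinking water for 6 weeks, and the Sham group drank plain water over the same 6 weeks. Each replicate was a pool of tissue punched from 10 animals, so a value describes a pool and not an animal, and all cell types of the punch were mixed. In such bulk tissue, fewer cells of a type and a weaker mark in each cell cannot be told apart. The comparison asks where in the PAG genome the mark of active regulatory DNA was found under one treatment and not under the other.

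The PAG is the grey matter around the aqueduct of the midbrain. It takes part in the descending control of pain and in defensive and autonomic responses, and its ventral part borders the dorsal raphe, a main source of serotonin in the forebrain. Fluoxetine is a selective serotonin reuptake inhibitor that blocks the serotonin transporter. H3K27ac, the acetylation of histone H3 at lysine 27, marks active promoters and enhancers. A peak is a stretch of genome where a caller found the mark enriched, so a list of peaks is a map of the regulatory DNA in use in a tissue.

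The label was checked against the other regions, since the peak lists carry no gene names and marker genes were not analysed here. The overlap of 2 lists was measured on 1 kb windows of the genome, a window being occupied when peaks covered at least 50% of it. The Jaccard index is the number of windows occupied in both lists divided by the number occupied in either. Over full lists, the region most similar to each of the 4 PAG libraries was the locus coeruleus (LC), a neighbour in the brainstem, with a mean index of 0.499 to 0.588. The raphe came next, at 0.371 to 0.470. The ventral dentate gyrus of the hippocampus followed, at 0.347 to 0.417, so the order was not one of anatomical proximity alone. The habenula (HB) came last, at 0.166 to 0.212. Full lists differ in length, and the part of length in this order was not tested. Every PAG library was nearest to another PAG library. Sham replicate 2, however, had an index of 0.561 with Sham replicate 2 of the LC. That was above its 0.555 and 0.552 with FT replicates 1 and 2 of the PAG.

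Sham replicate 2 stood apart from the other 3 PAG libraries. Its Jaccard index on full lists was 0.601 with Sham replicate 1, 0.555 with FT replicate 1 and 0.552 with FT replicate 2. Sham replicate 1 was closer to FT replicate 1 (0.767) and to FT replicate 2 (0.725) than to the other Sham library. The FT libraries had an index of 0.760 with each other. The same held on lists cut to equal length, where Sham replicate 1 had an index of 0.797 with FT replicate 1 and of 0.646 with Sham replicate 2. Results are therefore given with all 4 libraries and, where they rest on it, without Sham replicate 2. Among the 20 other regions with 4 lists, Sham replicate 2 was the shortest list in 14. In 12 of the 20, neither Sham list reached the length of an FT list. The read depth of the libraries is unknown, because the lists give no read totals, and its part in these differences was not tested.

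The FT lists held more peaks and covered more of the genome than the Sham lists. Sham replicate 1 had 39372 peaks and Sham replicate 2 had 30192, against 41637 and 42639 peaks in the FT replicates. Both FT lists lay above both Sham lists, but the gap between the Sham lists was larger than the gap between the treatments. The mean was 42138 ± 709 peaks in FT and 34782 ± 6491 in Sham (SD, n = 2 each), a log2 ratio of 0.29. The exact permutation test over the 3 ways of dividing the 4 libraries 2 against 2 gave p = 0.333 (two-sided), the smallest value this design allows. No comparison in the PAG could therefore reach 0.05. Without Sham replicate 2, the log2 ratio was 0.10.

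Covered length followed the same order. Peaks covered 66.6 Mb and 45.6 Mb in the Sham libraries (replicates 1 and 2) and 73.1 Mb and 72.7 Mb in the FT libraries. The log2 ratio of FT to Sham was 0.40 (exact permutation p = 0.333, two-sided), and it was 0.13 without Sham replicate 2. The FT libraries differed from each other by 0.01 on the log2 scale and the Sham libraries by 0.55. Thus the spread between the Sham pools exceeded the difference between treatments.

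Peak width did not separate the treatments over full lists. Sham replicates 1 and 2 had medians of 1700 bp and 1500 bp, and FT replicates 1 and 2 had medians of 1800 bp and 1700 bp, so the groups overlapped. The log2 ratio was 0.13 (exact permutation p = 0.667, two-sided). Peaks of at least 3 kb made up 2.06% and 1.16% of the Sham lists and 2.60% and 2.34% of the FT lists. The highest −log10 p-value a peak can have in these lists is 200, and 1638 and 350 Sham peaks reached it, against 2531 and 2605 FT peaks.

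To compare lists of one length, each was cut to its 30192 peaks of highest maxScore, the caller's peak score, which is the length of the shortest list. The lowest score kept was 58.8 and 43.6 in the Sham libraries and 73.8 and 66.6 in the FT libraries (replicates 1 and 2). The median width then was 1900 bp and 1500 bp in Sham and 2000 bp in each FT library. Cut lists occupied 57712 and 45556 windows in Sham and 60993 and 60057 in FT. An equal number of peaks thus did not give an equal number of windows, since the peaks of Sham replicate 2 were narrower.

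**Figure D1:**
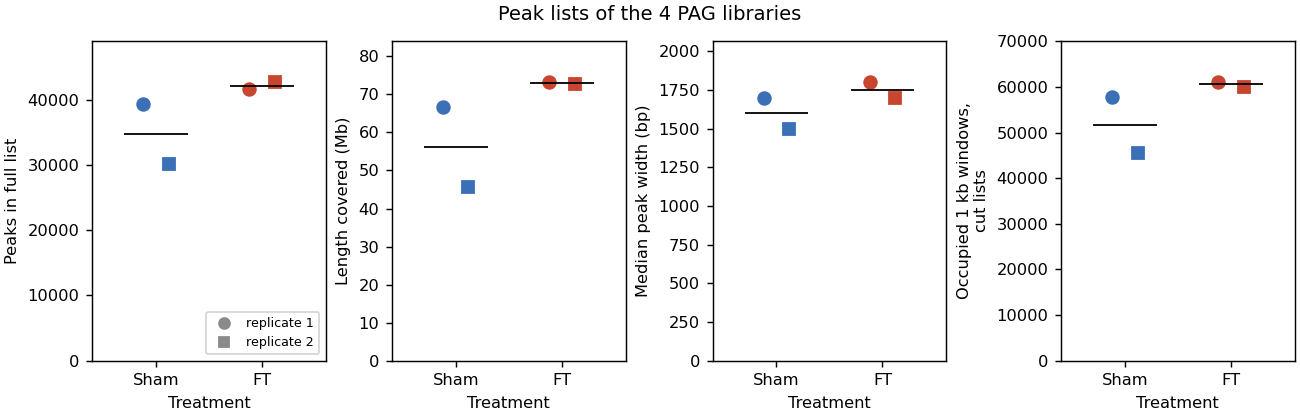
Each panel shows 1 measure of the 4 PAG peak lists on the y axis (number of peaks, covered length in Mb, median width in bp, and number of occupied 1 kb windows of the cut lists) by treatment on the x axis. Points are libraries (circle, replicate 1, square, replicate 2) and lines are group means. Sham replicate 2, with 30192 peaks and 45.6 Mb, lies below the other 3 libraries in every panel.

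Width was also compared at the same places. Peaks of the 4 full lists that overlapped were merged into 51347 elements, of which 26169 had a peak in every library. At the 25896 of these with exactly 1 peak in each library, the mean width was 1960 bp and 1604 bp in Sham (replicates 1 and 2) and 2064 bp and 2031 bp in FT. Both FT peaks were wider than both Sham peaks at 11293 elements (43.6%), and both Sham peaks were wider at 104 (0.402%). When the libraries were divided by replicate number instead, the replicate 1 peaks were wider at 4108 elements and the replicate 2 peaks at 127. The log2 ratio of mean widths was 0.21 (exact permutation p = 0.333, two-sided). Against Sham replicate 1 alone, over 33756 elements, both FT peaks were wider at 15225 and both narrower at 3160, and the log2 ratio was 0.08. The wider FT peaks at shared elements were thus also seen without Sham replicate 2, with a smaller difference.

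Sham and FT libraries of one replicate number were processed together, so the measures were also taken within each number. In replicate 1 the log2 ratio of FT to Sham was 0.08 for peak number, 0.14 for covered length and 0.07 for mean width at shared elements. In replicate 2 the same ratios were 0.50, 0.67 and 0.34. All had FT above Sham, and those of replicate 2, which holds Sham replicate 2, were the higher on all 3 measures. On cut lists, 8358 windows were in FT and not in Sham in replicate 1 and 5077 were in Sham and not in FT, so 62.2% were on the FT side. In replicate 2 the counts were 19867 and 5366, or 78.7% on the FT side.

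About as many windows were shared by all 4 libraries as were not. In the full lists 88614 windows were occupied in at least 1 library, and 40576 of them (45.8%) in all 4. In the cut lists the numbers were 74180 and 38684 (52.1%). The second most frequent pattern on cut lists was a window held by both FT libraries and Sham replicate 1 but not by Sham replicate 2, with 10532 windows (14.2%). The reverse case, a window missing in Sham replicate 1 alone, was found 737 times.

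Windows that separated the treatments lay mostly on the FT side. A window was counted as higher in FT when both FT lists occupied it and neither Sham list did, and as higher in Sham in the reverse case. In the full lists 5745 windows were higher in FT (6.48% of windows occupied in any library) and 484 were higher in Sham (0.546%). In the cut lists 3675 were higher in FT (4.95%) and 520 were higher in Sham (0.701%). FT windows thus made up 92.2% of the separating windows on full lists and 87.6% on cut lists. When lists were cut by maxScore to the covered length of the shortest list instead of its number of peaks, the FT side held 1802 windows, the Sham side 1395, and the FT share was 56.4%.

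Divisions of the same libraries that ignored treatment also gave many such windows. On cut lists, 2464 windows were held by both replicate 1 libraries and no replicate 2 library, and 386 by the replicate 2 libraries alone. The crossed division gave 1386 windows for Sham replicate 1 with FT replicate 2 and 441 for Sham replicate 2 with FT replicate 1. In each of the 3 divisions the side without Sham replicate 2 held more windows. The treatment division gave the highest total, 4195 against 2850 and 1827, a log2 split ratio of 0.84, where the split ratio is the treatment total over the mean of the other totals after adding 1 to each. On full lists the totals were 6229, 3864 and 2082, and the log2 split ratio was 1.07. Both had p = 0.333 in the exact permutation test (one-sided), the smallest possible with 3 divisions. With lists cut to one covered length the totals were 3197, 1944 and 1192, and the log2 split ratio was 1.03. There too, the side without Sham replicate 2 held more windows in each division.

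The direction rested in large part on Sham replicate 2. Without it, 4412 windows of the cut lists were higher in both FT libraries than in Sham replicate 1, and 3308 were higher in Sham replicate 1, so that 57.2% were on the FT side. On full lists the counts were 6409 and 3961, or 61.8% on the FT side. Without Sham replicate 1 they were 14207 and 3970 on cut lists. Without Sham replicate 2, the treatment total of 7720 on cut lists lay between the totals of the other divisions of the 3 libraries, 5715 and 8079. Leaving out FT replicate 1 or FT replicate 2 made the log2 split ratio on cut lists -0.24 or -0.46, since Sham replicate 2 alone against the other libraries then gave the highest total.

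**Figure D2:**
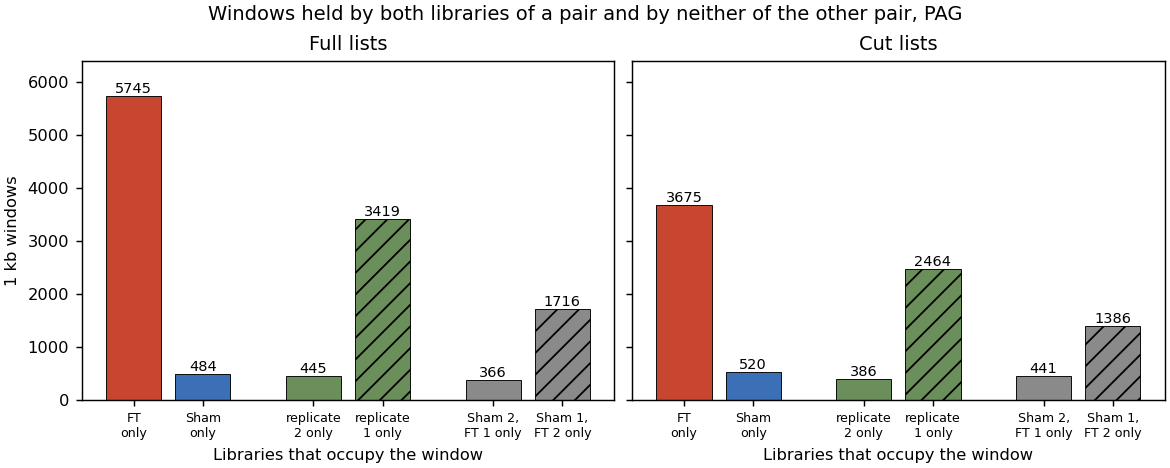
Bars count 1 kb windows (y axis) occupied by both libraries of a pair and by neither library of the other pair, on full lists and on lists cut to 30192 peaks, for the division by treatment, by replicate number and crossed (x axis). FT bars reach 5745 and 3675, and in every division the higher bar belongs to the pair without Sham replicate 2.

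Similarity between libraries gave a like picture. On cut lists, the mean Jaccard index of same-treatment libraries exceeded that of FT with Sham libraries by 0.0220. The same difference was -0.00105 for replicate number and -0.0210 for the crossed division (exact permutation p = 0.333, one-sided). FT replicate 1 with Sham replicate 1 was the most similar pair of the 4 libraries on cut lists, at 0.797, and FT replicate 1 with FT replicate 2 followed at 0.795.

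On cut lists, most separating windows were not empty in the other treatment. Of the 3675 windows higher in FT on cut lists, 873 (23.8%) were occupied in a full Sham list, by peaks that fell below the score limit of the cut. Another 2512 (68.4%) held some bases of a Sham peak but fewer than 50% of the window. Only 290 (7.89%) held no base of a Sham peak in the full lists, 45 of them next to a window with a Sham peak. Sham replicate 1 covered a median of 437 bp of these windows, just short of the 500 bp that make a window occupied, and Sham replicate 2 covered 0 bp. FT replicate 1 covered 686 bp and FT replicate 2 covered 698 bp. On cut lists the windows higher in FT therefore lay mainly where Sham replicate 1 also had part of a peak. Windows of the replicate 1 libraries alone were placed much alike, with 34.1% occupied in a full replicate 2 list, 59.2% partly covered and 6.70% without a base. On full lists, 2526 of 5745 windows higher in FT held no base of a Sham peak, and the median cover was 216 bp in Sham replicate 1 and 0 bp in Sham replicate 2.

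The 520 windows higher in Sham were placed otherwise. An FT full list occupied 397 of them (76.3%), 90 (17.3%) held part of an FT peak, and 33 (6.35%) held none. FT replicate 1 covered a median of 706.5 bp and FT replicate 2 covered 599 bp of these windows, against 893 bp in Sham replicate 1 and 716 bp in Sham replicate 2. On cut lists they were thus mostly sites that FT peaks covered with a score below the cut. On full lists the reverse was found, with no base of an FT peak in 354 of 484 windows higher in Sham (73.1%) and a median cover of 0 bp in each FT library. The cut left the list of Sham replicate 2 whole. In the other cut-list divisions too, the side with Sham replicate 2 was more often occupied in an opposing full list. The shares were 56.2% for replicate 2 and 34.1% for replicate 1. They were 55.3% for Sham replicate 2 with FT replicate 1 and 46.0% for the opposite pair.

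**Figure D3:**
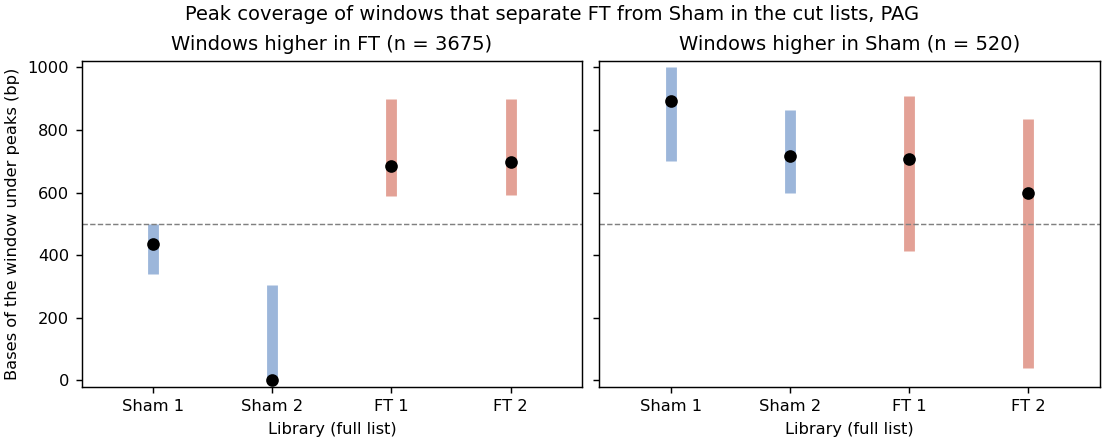
Bases of a 1 kb window under peaks of the full lists (y axis, bp) in each PAG library (x axis), for the 3675 windows higher in FT and the 520 higher in Sham on cut lists. Points are medians, bars run from the first to the third quartile, and the dashed line at 500 bp is the limit for an occupied window. In windows higher in FT the median was 437 bp in Sham replicate 1 and 0 bp in Sham replicate 2.

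By element, 2024 of the windows higher in FT (55.1%) lay in an element with a peak in both Sham libraries, and 1408 (38.3%) in an element with a peak in 1 Sham library. The other 243 windows (6.61%) lay in an element without a Sham peak. Counted as elements over full lists, 2779 had a peak in both FT libraries and in no Sham library (5.41% of all elements), and 431 had one in both Sham libraries and in no FT library (0.839%). Division by replicate number gave 1495 and 381 elements, and the crossed division 905 and 186. FT-only elements had a median width of 1266 bp, and elements with a peak in all 4 libraries one of 2200 bp. Elements of the other pairs were narrow too, with medians of 1100 bp for Sham only, 1203 bp for replicate 1 and 1100 bp for replicate 2. Each crossed pair had a median of 1200 bp. Elements with a peak in 2 libraries were thus narrower than those in all 4, whichever the pair. An element joins the overlapping peaks of all lists, so its width can rise with the number of libraries by construction.

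Windows higher in FT were short and spread over the genome. They formed 3280 loci of adjoining windows, of which 2892 were a single window, and the longest had 4. The 520 windows higher in Sham formed 478 loci of at most 2 windows. The share of PAG windows that was higher in FT ran from 4.02% on chromosome X to 5.81% on chromosome 13. By megabase, 1434 of the 2597 bins with a PAG window held a window higher in FT, with a median of 2. The bin with the most, chr11:69000001-70000000 in the Rn5 build, held 15 among 91 windows. Adjoining loci thus seldom formed longer domains.

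The tag counts of the peaks were ranked within each list, as a percentile in which 100 is the highest, since the lists do not state how Norm-tag-count, the normalised tag count of a peak, was scaled between libraries. Windows higher in FT lay at peaks of middle rank. Their median percentile was 37.9 in FT replicate 1 and 47.5 in FT replicate 2, against 77.4 and 75.2 at windows occupied in all 4 libraries. Sham replicate 1 had a peak at 3351 of the 3675 windows higher in FT, with a median percentile of 48.6, above both FT medians. Sham replicate 2 had one at 1800 of them, with a median of 29.1. Higher in FT thus refers to the occupied windows and not to the tag rank. Windows higher in Sham lay at peaks of low rank, with a median of 20.8 in Sham replicate 1 and 29.1 in Sham replicate 2. Of the windows higher in FT, 18.5% lay at a peak above the percentile 75 of FT replicate 1, and 22.2% at one of FT replicate 2.

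At the 26169 elements with a peak in all 4 libraries, the mean percentiles of FT and Sham differed by a median of 5.37 points. Replicate number gave 4.96 points and the crossed division 4.76 points, so the treatment exceeded their mean by 0.51 points (exact permutation p = 0.333, one-sided). The excess was 1.22 points with ranks taken within the cut lists and remained above 0 with peaks ranked by maxScore. Both FT peaks outranked both Sham peaks at 8783 elements (33.6%), and both Sham peaks outranked both FT peaks at 1245 (4.76%). Division by replicate number gave 6544 elements for replicate 1 and 2564 for replicate 2. Percentiles were taken within lists of 30192 to 42639 peaks. Within the cut lists, which have one length, both FT peaks outranked both Sham peaks at 4304 of 23659 elements (18.2%), and the reverse held at 3813 (16.1%). The division by replicate number gave 4213 and 3514 there, and the crossed division 4151 and 3657. The excess towards FT was thus found on full lists and was small at equal length. On full lists without Sham replicate 2, both FT peaks outranked Sham replicate 1 at 13527 of 33952 elements and ranked below it at 8761. Tag counts were whole numbers between 0 and 29, and 59.3% of peaks had a count of 4 or less, so ranks held many ties.

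Large rank gaps were few. Both FT peaks ranked at least 20 points above both Sham peaks at 82 elements, and the reverse was found at 2. Division by replicate number gave 0 such elements on either side, and the crossed division gave 4. Within the cut lists the counts were 51 towards FT and 12 towards Sham, beside 0 and 26 in the division by replicate number and 15 and 4 in the crossed one. The element with the widest gap towards FT, chr3:127169108-127170207, had tag counts of 2 and 2 in Sham and 5 and 5 in FT. Its percentiles were 2.41 and 4.86 in Sham and 56.8 and 64.5 in FT, and its peak was 400 bp and 200 bp wide in Sham and 1100 bp and 800 bp in FT. The second, chr20:9673751-9675950, had tag counts of 3 and 2 in Sham and 5 and 5 in FT. Its percentiles were 20.8 and 4.86 in Sham and 56.8 and 64.5 in FT. The third, chr10:104688205-104690510, had tag counts of 3 and 3 in Sham and 6 and 5 in FT. Its percentiles were 20.8 and 29.1 in Sham and 69.0 and 64.5 in FT. Its maxScore was 89.2 and 68.0 in Sham and 222 and 156 in FT. At the third element, the other regions with a peak were the LC and the raphe. All 3 elements kept the FT side higher when peaks were ranked by maxScore and when they were ranked within the cut lists.

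Towards Sham, the widest gap was at chr14:76220716-76223115. Its tag counts were 7 in Sham replicate 1, 5 in Sham replicate 2 and 4 in each FT library, with percentiles of 85.3, 78.7, 37.9 and 47.5. Its maxScore was 238 and 139 in Sham and 88.9 and 83.6 in FT, and it too had a peak in the LC and the raphe and in no other region. In the raphe the state was the reverse, with a peak in both FT libraries and in neither Sham library. The next was chr7:18761703-18763501, with tag counts of 4 and 4 in Sham and 3 and 3 in FT. Its percentiles were 48.6 and 60.7 in Sham and 13.9 and 21.2 in FT. Ranked by maxScore that order was lost, with a margin of the lower Sham over the higher FT percentile of -21.0 points. The last, chr1:92194966-92196902, had tag counts of 3 and 3 in Sham and 2 and 2 in FT, and had a peak in all 24 other regions. Its percentiles were 20.8 and 29.1 in Sham and 0.817 and 2.81 in FT. Equal counts did not have equal percentiles across lists. A count of 4 stood at 48.6 and 60.7 in the Sham libraries and at 37.9 and 47.5 in the FT libraries.

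Of the loci higher in FT on cut lists, 212 of 3280 held no Sham peak at all, and of those higher in Sham, 30 of 478 held no FT peak. The 6 with the highest FT rank among the 212 were taken by the lower of the 2 FT percentiles. The first, chr3:167620001-167621000, had tag counts of 16 and 15 (percentiles 98.4 and 98.5). The nearest Sham peak lay 138 bp away, and peaks over the locus were found in 23 other regions, in 18 of their Sham libraries and 37 of their FT libraries. The fifth, chr18:73271001-73272000, had tag counts of 10 in both FT libraries, and 9 other regions had a peak there. Its nearest Sham peak was 2984 bp away. Of the 6, these are the loci whose element held no Sham peak.

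The other 4 windows lay in an element that held peaks of both Sham libraries outside the window. At chr19:36573001-36574000 the FT peaks were 2400 bp wide in each library, with tag counts of 13 and 12, and the Sham peaks in the same element reached the percentile 92.8. At chr6:9669001-9670000 the window lay inside FT peaks of 4600 bp and 4800 bp, 32 bp from a Sham peak, and the Sham peaks in the element reached 96.6. At chr1:268958001-268959000 the FT peaks were 4100 bp and 1000 bp wide, and the nearest Sham peak was 583 bp from the window. At chr6:141326001-141327000 they were 1600 bp and 3800 bp wide, and the nearest Sham peak was 1118 bp away. These 4 windows had a peak in 1 or 2 other regions, in the ventromedial hypothalamus, the LC or the raphe.

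The longest locus higher in FT, chr1:88267001-88271000, spanned 4 windows. Its FT peaks were 3600 bp and 3500 bp wide, with percentiles of 69.0 and 64.5. Sham replicate 1 had a peak of 2400 bp there, at the percentile 48.6 and with a maxScore of 55.2, below the score limit of the cut, and Sham replicate 2 had none. The locus had peaks in all 24 other regions, in 44 of 45 Sham libraries and in 45 of 45 FT libraries.

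Among loci higher in Sham, none of the 6 with the highest rank had an FT peak in the same element. The first, chr6:141505001-141506000, had tag counts of 6 and 5 (percentiles 78.2 and 78.7) and peaks in all 24 other regions. The second, chr11:46161001-46163000, was also the longest, with 2 windows. Its peaks were 2200 bp and 1900 bp wide, with tag counts of 6 and 4 (percentiles 78.2 and 60.7) and a maxScore of 204 and 146. The nearest FT peak was 15199 bp away, and the locus had peaks in the LC and the raphe and in no other region. The third, chr18:56467001-56468000, had percentiles of 67.2 and 60.7 and peaks in 7 other regions. The fourth to sixth, chr1:85192001-85193000, chr17:28856001-28857000 and chr7:117174001-117175000, each had percentiles of 48.6 and 29.1. They had peaks in 4, 0 and 4 other regions. The locus on chromosome 17 was thus found in the PAG and in none of the 90 libraries of other regions.

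Most changed windows were active in other regions, which was counted as occupation in at least 1 library of the 24 other regions, full lists. Of the 3675 windows higher in FT on cut lists, 2897 (78.8%) were active elsewhere, in a median of 5 regions, and 778 (21.2%) were occupied in none. Of the 520 windows higher in Sham, 503 (96.7%) were active elsewhere, in a median of 23 regions, and 17 in none. Among all 74180 windows of the PAG the share was 92.4% and the median 21 regions, and among windows in all 4 libraries the share was 99.0%. When any base of a peak elsewhere was counted, the share was 94.0% for windows higher in FT on cut lists. It was 98.8% for windows higher in Sham and 97.3% for all PAG windows. Most of the 778 windows thus held part of a peak in another region. On full lists 4412 of 5745 windows higher in FT (76.8%) and 456 of 484 higher in Sham (94.2%) were active elsewhere, in medians of 5 and 10 regions, against 90.5% and 19 regions for all PAG windows. The share active elsewhere was thus below that of all PAG windows for windows higher in FT, and above it for windows higher in Sham. The number of regions of windows higher in Sham differed between the lists, being above that of all PAG windows on cut lists and below it on full lists.

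Taken over both directions, 81.0% of the windows that separated the treatments on cut lists were active elsewhere. The share was 89.3% for the division by replicate number and 88.8% for the crossed one. The treatment share minus the mean of the others was -8.0 points, and the exact permutation test for a higher share gave p = 1 (one-sided). Without Sham replicate 2 the sign turned, to 4.08 points, and without Sham replicate 1 it was 6.71 points. The share among windows higher in FT moved less. Against Sham replicate 1 alone, 3539 of 4412 such windows (80.2%) were active elsewhere, in a median of 5 regions, beside 3025 of 3308 windows (91.4%) higher in Sham replicate 1, in a median of 21.

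**Figure D4:**
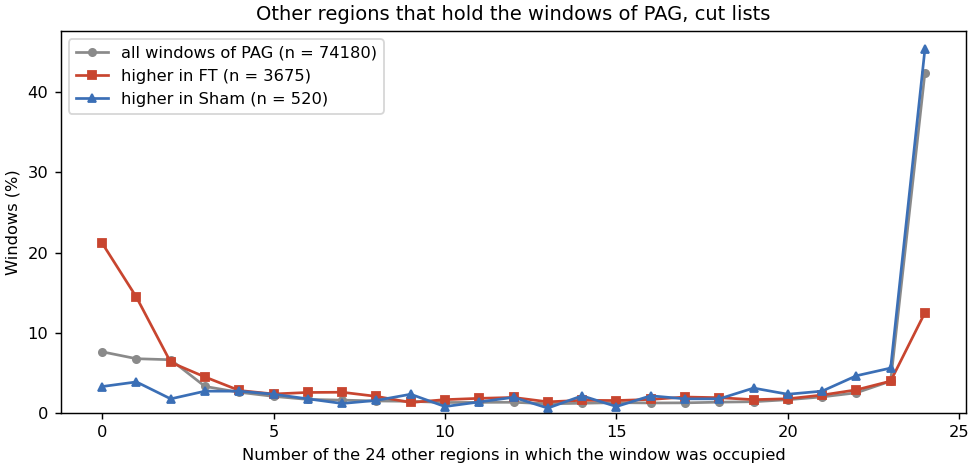
Share of 1 kb windows (y axis, %) by the number of the 24 other regions in which they were occupied (x axis), for all PAG windows, those higher in FT and those higher in Sham, cut lists. Windows higher in FT have 21.2% at 0 regions and 12.5% at 24, and all PAG windows have 7.60% at 0 and 42.4% at 24.

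Activity elsewhere was somewhat lower at the highest ranks among the windows higher in FT. Among windows whose lower FT percentile was at most 25, 80.0% were active elsewhere, in a median of 6 regions. Among those above 75 the share was 75%, in a median of 3 regions. At windows of all 4 libraries the shares for the same ranks were 97.4% and 99.2%. Of the windows higher in FT, 2584 (70.3%) were occupied in a Sham library of another region, below the 89.6% of all PAG windows. Of the 290 with no base of a Sham peak in the PAG, 201 were active elsewhere and 89 were not.

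By region, the windows higher in FT on cut lists were most often active in the LC (2092, 56.9%), followed by the raphe (1712, 46.6%) and the dorsal dentate gyrus (dorDG, 1538, 41.9%). They were least often active in the shell of the nucleus accumbens (NaCshell, 1110, 30.2%). Among all PAG windows the shares were 83.7% in the LC, 77.1% in the raphe, 64.6% in the dorDG and 57.1% in the NaCshell, so all 4 shares were lower for windows higher in FT, and the 4 regions stood in the same order. The windows higher in Sham on cut lists were led by the LC (473, 91.0%), the raphe (440, 84.6%) and the ventral tegmental area (VTA, 416, 80.0%), where the share of all PAG windows was 64.8%. On full lists they were led by the LC (71.5%), the VTA (69.0%) and the medial preoptic area (MPOA, 67.4%), and the raphe, with 194 windows (40.1%), ranked 16 of 24. The place of the raphe among windows higher in Sham thus depended on the cut.

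The windows were then followed into the 20 other regions that had 2 libraries of each treatment. In the prelimbic cortex (PLC), 578 of the 1322 windows higher in FT in the PAG that were occupied there were held by both FT and neither Sham library of that region (43.7%), and 0 by both Sham and neither FT library. Among all PAG windows occupied in the PLC, however, the share on the FT side was 24.2%. In the VTA 185 of 1433 were on the FT side (12.9%) and 2 on the Sham side, against 4.67% and 0.216% of all PAG windows occupied there. In the raphe 123 of 1712 (7.18%) were on the FT side, below the 7.94% of all PAG windows, and 12 on the Sham side. In the LC 66 of 2092 (3.15%) were on the FT side and 58 (2.77%) on the Sham side, against 0.906% and 1.85% of all. In the ventral dentate gyrus (venDG) 19 were on the FT side and 32 on the Sham side.

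Windows higher in FT in the PAG were more often on the FT side than all PAG windows in 19 of the 20 regions, the raphe being the exception. The median share over regions was 9.47%, against 4.64% for all PAG windows. Windows missing in Sham replicate 2 alone, which do not separate the treatments, had a median of 6.61%. Those windows also exceeded all PAG windows in the PLC (36.4% against 24.2%) and the VTA (7.60% against 4.67%), but not in the raphe (5.72% against 7.94%). For windows higher in Sham, the share on the Sham side was above that of all PAG windows in 17 of 20 regions, with a median of 1.45% against 0.333%. The windows higher in Sham nevertheless had more windows on the FT side than on the Sham side in 16 of the 20 regions, with a median share of 3.67% on the FT side. That count was 8 of 20 on full lists, where the Sham side held more in 11. Shares on the opposite side also exceeded those of all PAG windows, in 8 regions for windows higher in FT and in 7 for windows higher in Sham. These shares are a description and were not tested. Per the study's methods, the punches of all regions came from 20 animals per treatment group in pools of 10, so the regions can share animals and are not independent units. They also differ in list length between treatments, and its part in these shares was not tested.

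**Figure D5:**
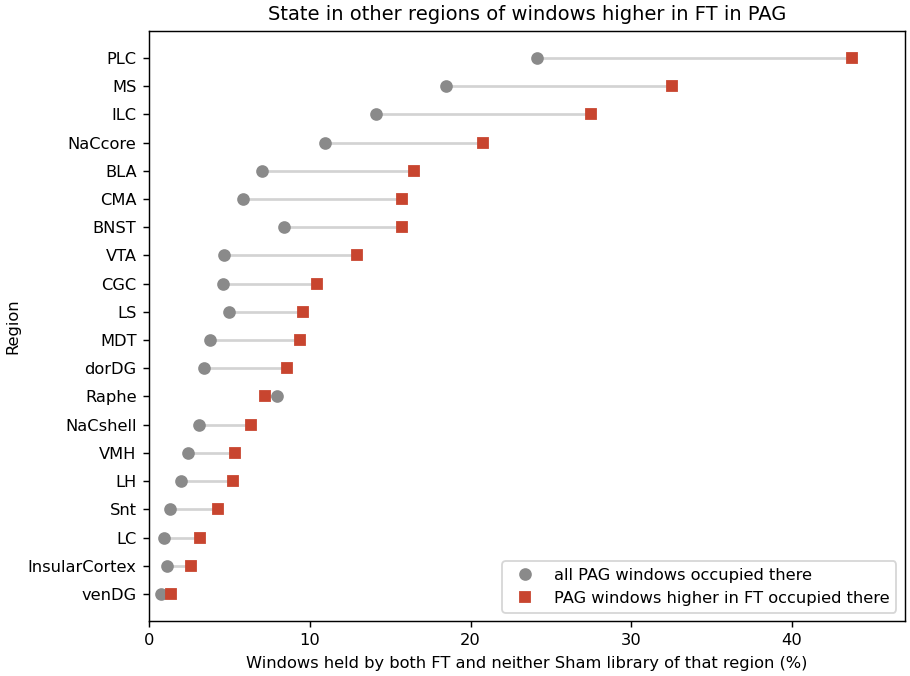
For each of the 20 other regions with 4 lists (y axis), the share of windows occupied there that both FT libraries and neither Sham library of that region held (x axis, %), for all PAG windows and for those higher in FT in the PAG on cut lists. The square lies to the right of the circle except in the raphe, and the highest values are 43.7% and 24.2% in PLC.

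Beside the other regions, the PAG was near the middle. Each region's lists were cut to its own shortest list, and the log2 split ratio of the PAG, 0.84, ranked 14 of 21, between -0.48 in venDG and 3.15 in PLC. The log2 ratio of peak number ranked 12 of 21. The share of occupied windows that separated the treatments was 5.66% in the PAG, ranking 15 of 21. Its Sham libraries ranked 11 of 21 in similarity to each other, with a Jaccard index of 0.646, and its FT libraries ranked 5, with 0.795.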

How the data were processed

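H3K27ac was immunoprecipitated from punched tissue of Sham and FT rats with 1 antibody lot, and Sham and FT libraries of one replicate number were processed in parallel, per the study's methods. Reads were aligned to Rn5, and the submitters' processing notes name BWA, with no version given. The authors called peaks with DFilter in each library separately. The deposited lists give, for each peak, a maxScore and a Norm-tag-count, both used as scores, a −log10 p-value between 4 and 200, and an FDR in percent that was 0 throughout. The study's methods describe binned read counts scaled for depth and corrected for GC bias with input, for a consensus peak matrix. Whether the deposited Norm-tag-count score was made in this way is not stated. Starts were taken as counted from 0 and are printed counted from 1. The lists hold no read counts, so the precision that depth allows is unknown, and input libraries were not analysed here.

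Peaks were laid on 1 kb windows, occupied at a cover of at least 50%. Cut lists kept the 30192 peaks of highest maxScore. Groups came from the titles. The exact permutation test took the 3 ways of dividing the 4 libraries. The replicate number pairs libraries processed in parallel; over the 74180 windows of the cut lists, the difference between replicates in Sham correlated with that in FT at 0.05. Named loci were, per direction, the 6 of highest rank without a peak of the other treatment, the longest, and the 3 shared elements with the widest rank gap. No annotation of Rn5 was used, so loci carry no gene names. The members, measures and rules were chosen with earlier results of these data known. Python 3.11.15, NumPy 2.4.6, pandas 2.3.3, SciPy 1.17.1 and matplotlib 3.10.9 were used, and the window counts were tested on simulated data. Alternatives were a stricter −log10 p-value of 6, 5 kb windows, other ways to cut and rank, a replicate block and leaving out each library.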

Additional observations from a re-analysis of the deposited data

Results flagged for a closer look

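The PAG and another region took opposite directions at 4 of the named loci and elements higher in Sham, and these differences were not tested. At chr6:141505001-141506000, where the lower Sham percentile in the PAG was 78.2, both FT and neither Sham library of the PLC had a peak. At chr11:46161001-46163000, where it was 60.7, the same was found in the raphe. At chr1:85192001-85193000, where it was 29.1, it was found in the dorDG. At chr14:76220716-76223115, an element with a peak in every PAG library and a lower Sham percentile of 78.7, it was found in the raphe. For comparison, 24.2% of all PAG windows of the cut lists that were occupied in the PLC were on its FT side. The share was 7.94% in the raphe and 3.44% in the dorDG. At the chromosome 6 locus, 41 of 45 Sham and 45 of 45 FT libraries of the other regions had a peak.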

How the results depend on the processing

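The libraries number 2 a group, no test could pass 0.05, and depth is unknown. Of 119 values of the comparison recomputed under alternatives, 82 kept their direction or stayed within 1.5 times, 8 reversed and 29 counts moved further. With the replicate block, the division by replicate number was left out, and the treatment total was set against the crossed total alone. The log2 split ratio was then 1.20 on cut lists and 1.58 on full lists. The window counts and the ratios of peak number, covered length and width are by construction the same with and without the block. They count among the values that kept direction or size. No other measure changed direction with the block. The alternatives that leave out a library for the similarity, rank and activity measures, those that ask for no base of a peak of the other side, and those on elements and loci were chosen after seeing the data. What caused the moves was not tested.

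Windows higher in FT on full lists numbered 450 with 5 kb windows and 2526 when no base of a Sham peak was allowed. Windows higher in Sham on full lists numbered 131 with the stricter threshold, 2 with 5 kb windows and 941 when any base made a window occupied. On cut lists, windows higher in FT numbered 430 with 5 kb windows, 1802 with lists cut to one covered length, 1023 with lists cut to 10000 peaks, 1554 with each peak reduced to its centre window and 290 with no base of a Sham peak. Windows higher in Sham on cut lists numbered 3 with 5 kb windows, 1002 with any base, 1395 with one covered length, 974 with centre windows and 33 with no base of an FT peak. With one covered length, FT and Sham windows were thus 1802 and 1395. The element on chromosome 7 named for its rank towards Sham had a margin of -21.0 points by maxScore.

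Leaving out each library in turn gave, for windows higher in FT, 6409 to 21570 on full lists and 4412 to 14207 on cut lists. Windows higher in Sham numbered 754 to 3961 on full lists and 903 to 3970 on cut lists. The log2 split ratio ran from -0.20 to 1.28 on full lists and from -0.46 to 1.40 on cut lists, the Jaccard difference from -0.0625 to 0.178, the rank shift from -1.80 to 5.57 points, and the share active elsewhere from -11.4 to 6.71 points.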
